A study of Homo sapiens with 4 samples.

Results

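The genes described here make the enzymes and cofactors of DNA synthesis and DNA repair. They were taken from a list of 48 symbols, matched to the gene identifiers of the deposited tables, and 47 of them had a row among the 25192 genes of each table. PRIM2, the large primase subunit, was not analysed here. All 47 passed the filter on low counts that left 14099 genes for testing.

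The libraries came from A549, an established human lung adenocarcinoma line, and were made from RNA taken 48 h after retroviral infection. The control group, empty virus (EV, 2 libraries), had received a virus that carried GFP and no FCN3, and the FCN3 group (2 libraries) a virus that carried V5-tagged FCN3, a lectin of the ficolin family, together with GFP. Both groups were therefore infected, and no uninfected culture is part of the comparison. The libraries were numbered 1 and 2 in each group, and the labels do not say whether a number marks a culture, a day or a sequencing run. The p-values below therefore rest on a spread among libraries that may be technical. Where libraries are paired by number, that is the spread left after the difference between the numbers is removed.

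FCN3 itself had expected counts of 1 and 0 in EV replicates 1 and 2, against 722388 and 448352 in FCN3 replicates 1 and 2. Expected counts per library summed to 35733735 and 16353554 in EV and to 35031565 and 20136068 in FCN3, so the libraries numbered 1 were the deeper ones, and the smallest count of any member in any library was 164. Keratin and aldehyde dehydrogenase transcripts known from this line were high in all 4 libraries, with KRT8 between 1982 and 2789 TPM and ALDH1A1 between 3413 and 6415 TPM, while the epithelial markers EPCAM and CDH1 were low, at 1.09 to 3.65 and 3.35 to 9.53 TPM. The leukocyte, endothelial and alveolar markers PTPRC, PECAM1 and SFTPC did not exceed 1 count in any library. COL1A2, a fibroblast collagen, did not exceed 2 counts, and the other collagen marker, COL1A1, was at 2.7 to 8.12 TPM.

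As background, a replication fork is opened by the CMG helicase, which joins CDC45 and the GINS complex to the MCM ring. Polymerase alpha-primase lays down primers, the RFC loader places the PCNA clamp on them, polymerase epsilon extends the leading strand and polymerase delta the lagging strand. FEN1 and LIG1 then trim and seal the Okazaki fragments. Ribonucleotide reductase, thymidylate synthase and thymidine kinase supply the deoxynucleotides, and the mismatch, homologous recombination and Fanconi proteins mend errors, breaks and crosslinks that arise at forks. Many of these genes are transcribed around the G1/S transition, when E2F factors act at their promoters.

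Because of this background, promoter letters were searched before the expression values were set out. RefSeq promoter windows of GRCh38.p14, 300 bases each and running from 250 bases before to 50 after an annotated start, were available for 42 of the 47 members. POLD3, RPA2, RPA3, GINS4 and FANCI had no entry. An E2F pattern was taken as TTTCCCGC, TTTCGCGC, TTTGCCGC or TTTGGCGC on either strand. At least 1 window held it in 20 of the 42 members (47.6%), against 647 of 9937 tested genes with a window (6.51%) and 3.99% of all genes with one. Counted by window rather than by gene, the shares were 34.9% of 63 member windows and 4.73% of those of the tested genes. The pattern overlapped a GC box in 4 member windows. In 13 members a match lay wholly before the start. PIF1 and RRM2, with log2 fold changes of -1.26 and -0.93, had no match in any window, whereas GINS2, between them at -1.11, had one.

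The following stretches are the 250 bases before the start of 5 members, shown because they place the pattern beside the genes described below: GINS2, RFC3, POLA2 and UHRF1 are the members with such a match that had the most negative fold changes of their roles, at most 1 per role, and PMS2 is the member with the most positive one. They are read 5′ to 3′ on the strand of the gene, and capitals mark the E2F pattern, which reads GCGGGAAA where it lies on the other strand. The first base of the pattern was 31, 55, 53, 14 and 43 bases before the start, in the order given.
GINS2, chr16:85688955-85689204, minus strand: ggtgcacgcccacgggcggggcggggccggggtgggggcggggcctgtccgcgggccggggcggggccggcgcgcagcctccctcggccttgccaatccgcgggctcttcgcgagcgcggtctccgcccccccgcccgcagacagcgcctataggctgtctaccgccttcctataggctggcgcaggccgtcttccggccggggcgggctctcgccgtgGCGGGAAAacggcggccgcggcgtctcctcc
RFC3, chr13:33817899-33818148, plus strand: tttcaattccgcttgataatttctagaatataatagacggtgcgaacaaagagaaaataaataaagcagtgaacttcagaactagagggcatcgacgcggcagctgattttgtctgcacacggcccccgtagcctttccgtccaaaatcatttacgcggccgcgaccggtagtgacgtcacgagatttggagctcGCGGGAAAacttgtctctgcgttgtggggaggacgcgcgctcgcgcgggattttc
POLA2, chr11:65261712-65261961, plus strand: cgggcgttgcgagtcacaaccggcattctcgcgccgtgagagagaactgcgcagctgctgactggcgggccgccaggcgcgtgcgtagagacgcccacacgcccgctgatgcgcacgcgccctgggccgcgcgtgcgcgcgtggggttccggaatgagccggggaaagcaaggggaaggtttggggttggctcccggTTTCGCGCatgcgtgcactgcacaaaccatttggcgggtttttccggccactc
UHRF1, chr19:4909251-4909500, plus strand: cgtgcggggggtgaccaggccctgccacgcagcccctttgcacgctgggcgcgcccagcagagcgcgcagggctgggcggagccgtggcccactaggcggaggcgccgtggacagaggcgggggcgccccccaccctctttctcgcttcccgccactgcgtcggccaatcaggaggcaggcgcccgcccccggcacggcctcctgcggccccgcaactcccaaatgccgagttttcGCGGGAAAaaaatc
PMS2, chr7:6009107-6009356, minus strand: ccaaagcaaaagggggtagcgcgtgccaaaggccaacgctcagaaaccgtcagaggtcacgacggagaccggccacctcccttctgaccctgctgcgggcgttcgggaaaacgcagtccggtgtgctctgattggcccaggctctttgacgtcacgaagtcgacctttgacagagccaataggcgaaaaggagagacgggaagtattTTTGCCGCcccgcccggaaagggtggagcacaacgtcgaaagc

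For the other letters searched, also on both strands, the shares of members and tested genes were closer. The CCAAT box (CCAAT) was in the windows of 59.5% of members and 43.0% of tested genes, and the Sp1 GC box (GGGCGG) in 81.0% and 77.0%. The CHR element (TTTGAA), which is known from promoters of genes of G2 and mitosis, was in 9.52% of members and 13.6% of tested genes. A match says only that the letters are present.

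The members were lower with the FCN3 virus across every role. With the replicate number as a block, so that EV 1 is set against FCN3 1 and EV 2 against FCN3 2, edgeR's quasi-likelihood test called 43 of the 47 (91.5%) lower and 0 higher at a Benjamini-Hochberg adjusted p of 0.01. A gene is said to be called, or to have fallen or risen, only on that test. The same test called 17.1% of all 14099 tested genes lower and 19.1% higher. Without the block it called 0 members, against 0.965% of all tested genes called in either direction and 0.227% called lower. In that fit 41 of the 47 members had an unadjusted p below 0.05, as did 3542 of all 14099 tested genes in either direction. An adjusted p below 0.05 was reached by 26 members (55.3%), against 7.19% of all tested genes, and 2.77% with a lower value. DESeq2 called 41 members lower with the block, against 7.89% of all tested genes, and 28 without it, against 3.29%. On the log2(TPM + 1) scale limma with the block called 43 members lower, on a background that shifted to 22.3% of all tested genes lower and 10.2% higher. With 1 residual degree of freedom per gene in the blocked fit, the spread is largely borrowed from the other genes.

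The median log2 fold change (FCN3 minus EV) of the members was -0.57, against 0.01 over all tested genes. The pair of replicate 1 libraries gave -0.57 and the pair of replicate 2 libraries -0.55. Fitted values ran from -1.26 to 0.04, 46 of the 47 were below 0, and 34 (72.3%) were at or below -0.5, a size that 8.75% of all tested genes reached. Both FCN3 libraries lay below both EV libraries in 43 members (91.5%), against 26.5% of all tested genes. In bulk RNA, fewer cells in S phase and less of these transcripts per cell cannot be told apart. Markers of the line moved in both directions. On the log2 scale ALDH1A1, AKR1C2, AKR1C3 and NQO1 were at -0.64, -0.63, -0.39 and -0.16, and AKR1B10 was at 0.16. EPCAM and CDH1 were at -1.13 and -0.57, and KRT8 and KRT18 at 0.26 and 0.31. All of these were called with the block and none without it, while AKR1C1, at 0.07, was not called. The part of these markers in the members' values was not tested.

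**Figure D1:**
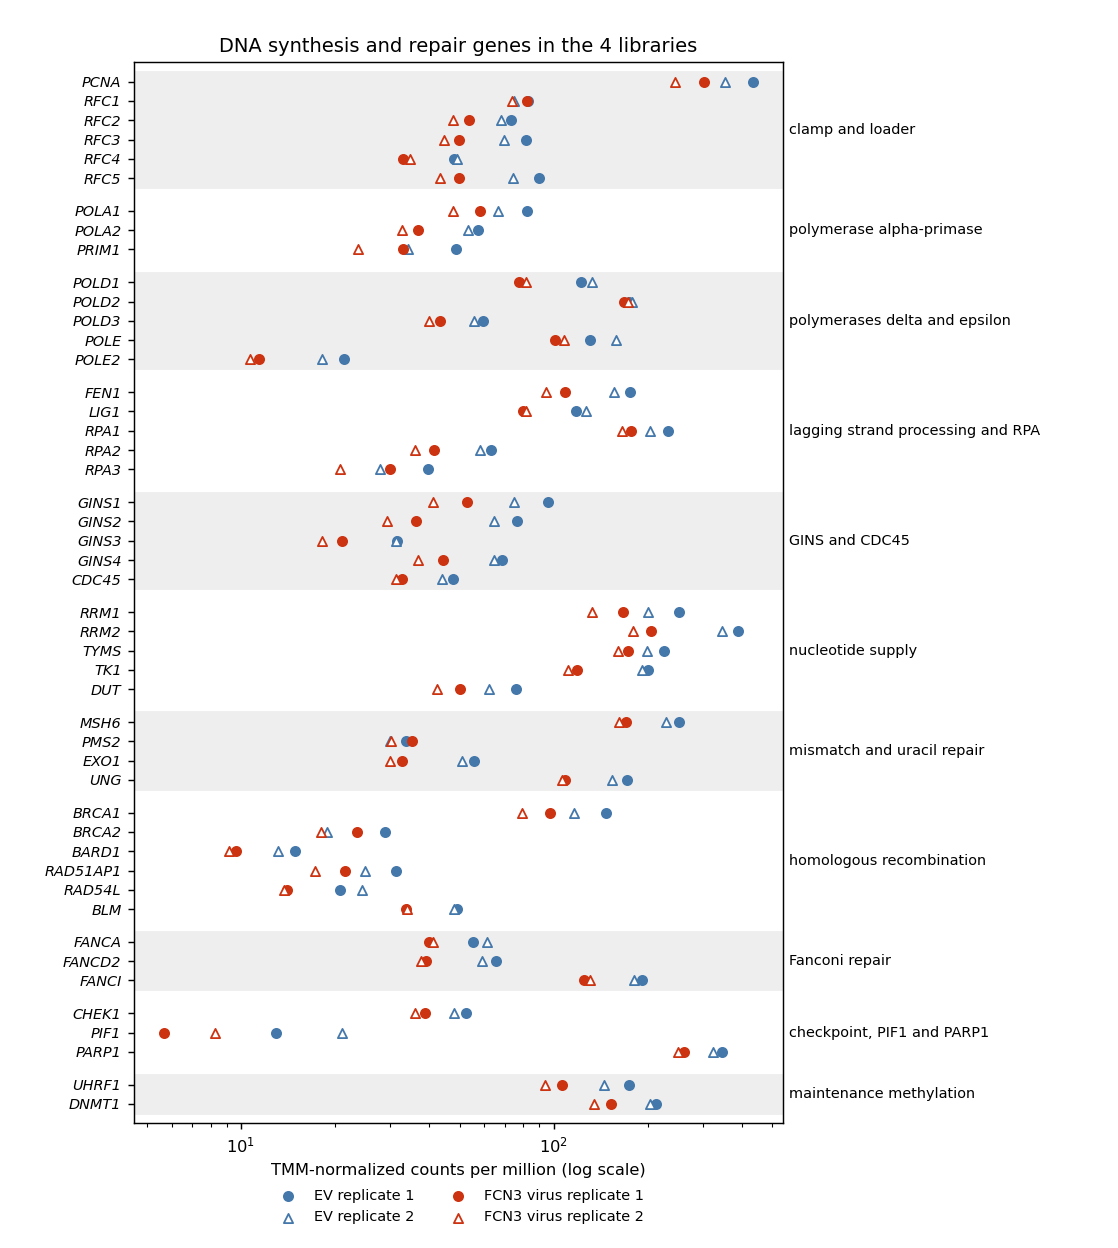
Level of each of the 47 members in the 4 libraries, in TMM-normalized counts per 1000000 on a log axis, with genes grouped by role; circles are replicate 1 and triangles replicate 2, blue EV and red FCN3 virus. The red symbols lie left of the blue ones in 43 genes, and RFC1, RPA3, PMS2 and BRCA2 are those where the groups overlap.

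The members' share of the library moved with these values. Together they took 0.561 and 0.51% of all expected counts in EV replicates 1 and 2, and 0.363 and 0.337% in the FCN3 libraries. On the TPM scale, which corrects for gene length, their sum was 4259 and 3769 in EV and 2661 and 2435 in FCN3. PCNA was the member with the highest TPM, at 692 and 560 in EV and 443 and 365 in FCN3. BRCA2 had the lowest EV mean, with 4.72 and 3.04 TPM in EV and 3.53 and 2.76 in FCN3.

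In the clamp and its loader, 5 of 6 members fell, with a median log2 fold change of -0.52. RFC5, a small subunit of the loader, was at 89.9 and 73.9 CPM (TMM-normalized counts per 1000000) in EV replicates 1 and 2 and at 49.8 and 43.2 CPM in FCN3 replicates 1 and 2. The FCN3 libraries thus lay below both EV libraries, by 43.2% in the fit (log2 fold change -0.82, SE 0.062, edgeR adjusted p = 3.5e-16, and 0.03 without the block). RFC1, the large subunit of the same loader, was at 83 and 74.8 CPM in EV and 82 and 73.5 CPM in FCN3. Here the libraries separated by replicate number and not by virus (log2 fold change -0.02, SE 0.059, edgeR adjusted p = 0.79, and 0.92 without the block). The TPM of RFC1 relative to RFC5 was 0.382 and 0.42 in EV and 0.681 and 0.709 in FCN3. The other small subunits, RFC2, RFC3 and RFC4, fell by 0.48, 0.68 and 0.52 on the log2 scale. PCNA, the sliding clamp, fell by 0.53 and stayed in a near-constant ratio to RFC2, at 7.83 and 6.87 in EV and 7.44 and 6.76 in FCN3 by TPM.

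All 3 tested members of polymerase alpha-primase fell. POLA2, the accessory subunit, went from 57.3 and 53.1 CPM in EV to 36.8 and 32.7 CPM in FCN3 (log2 fold change -0.67, SE 0.068, edgeR adjusted p = 5.9e-12, and 0.029 without the block). POLA1, the catalytic subunit, had 81.9 and 66.5 CPM in EV and 58.1 and 47.8 CPM in FCN3. Its groups did not overlap, and replicate 1 was the higher library in both (log2 fold change -0.49, SE 0.062, edgeR adjusted p = 3.4e-09, and 0.12 without the block). PRIM1, the small catalytic primase subunit, fell by 0.55 on the log2 scale (edgeR adjusted p = 1.1e-08, and 0.21 without the block). Leaving out 1 library, with no block, gave PRIM1 values from -0.82 (without FCN3 replicate 1) to -0.26 (without EV replicate 1), and POLA1 values from -0.64 to -0.32 without the same libraries. The pairs gave -0.56 and -0.54 for PRIM1 and -0.49 and -0.48 for POLA1.

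Of the 5 subunits of polymerases delta and epsilon, 4 fell, with a median of -0.46. POLE2, the second subunit of polymerase epsilon, was at 21.4 and 18.2 CPM in EV and 11.4 and 10.7 CPM in FCN3. Both FCN3 libraries were well below both EV libraries (log2 fold change -0.85, SE 0.1, edgeR adjusted p = 3.7e-10, and 0.033 without the block). POLE, the catalytic subunit of the same enzyme, fell by less, 0.46 on the log2 scale, with -0.38 and -0.55 in the 2 pairs. POLD2, the second subunit of polymerase delta, was at 174 and 178 CPM in EV and 168 and 173 CPM in FCN3. Although both FCN3 libraries lay below both EV libraries, the difference was within the error of the fit (log2 fold change -0.05, SE 0.052, edgeR adjusted p = 0.46, and 0.74 without the block). POLD1, the catalytic subunit of polymerase delta, fell by 0.68, and POLD3, another accessory subunit, by 0.46. The TPM of POLD2 was 3.14 and 2.95 times that of POLD1 in EV and 4.8 and 4.66 times in FCN3.

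Lagging strand processing and the single-strand binding complex RPA had 5 members, and all 5 fell, with a median of -0.61. FEN1, the flap endonuclease, was at 175 and 156 CPM in EV and 109 and 94.4 CPM in FCN3 (log2 fold change -0.70, SE 0.054, edgeR adjusted p = 5.0e-16, and 0.028 without the block). LIG1, the replicative DNA ligase, fell by 0.61. RPA1, the large subunit of RPA, had 232 and 203 CPM in EV and 176 and 165 CPM in FCN3, a smaller decrease with no overlap (log2 fold change -0.35, SE 0.052, edgeR adjusted p = 1.1e-07, and 0.097 without the block). RPA3, the small subunit, was at 39.7 and 27.8 CPM in EV and 30 and 20.8 CPM in FCN3. It was called with the block, yet FCN3 replicate 1 lay above EV replicate 2, so the groups overlapped (log2 fold change -0.41, SE 0.078, edgeR adjusted p = 1.6e-05, and 0.36 without the block). Its pairs gave -0.40 and -0.42. With no block and 1 library left out, RPA3 was at -0.71 without FCN3 replicate 1 and -0.11 without EV replicate 1. RPA2 fell by 0.64.

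The helicase cofactors GINS1 to GINS4 and CDC45 had the most negative median of all roles, at -0.71, and all 5 fell. GINS2 was at 76.3 and 64.6 CPM in EV and at 36.2 and 29.3 CPM in FCN3. Its highest FCN3 library was far below its lowest EV library, and the fit put it 53.6% lower (log2 fold change -1.11, SE 0.066, edgeR adjusted p = 3.2e-20, and 0.018 without the block). GINS2 is a protein-coding gene on chromosome 16 (GRCh37, 85709804 to 85723679, minus strand), where an exon of GSE1 on the other strand overlaps it. CDC45 had 47.6 and 43.9 CPM in EV and 32.7 and 31.4 CPM in FCN3 (log2 fold change -0.52, SE 0.071, edgeR adjusted p = 2.3e-08, and 0.045 without the block). GINS1, GINS3 and GINS4 fell by 0.86, 0.67 and 0.71. The 4 GINS proteins form 1 complex, but their transcripts did not keep a fixed ratio, with GINS2 at 4.85 and 4.19 times the TPM of GINS3 in EV and 3.4 and 3.22 times in FCN3.

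**Figure D2:**
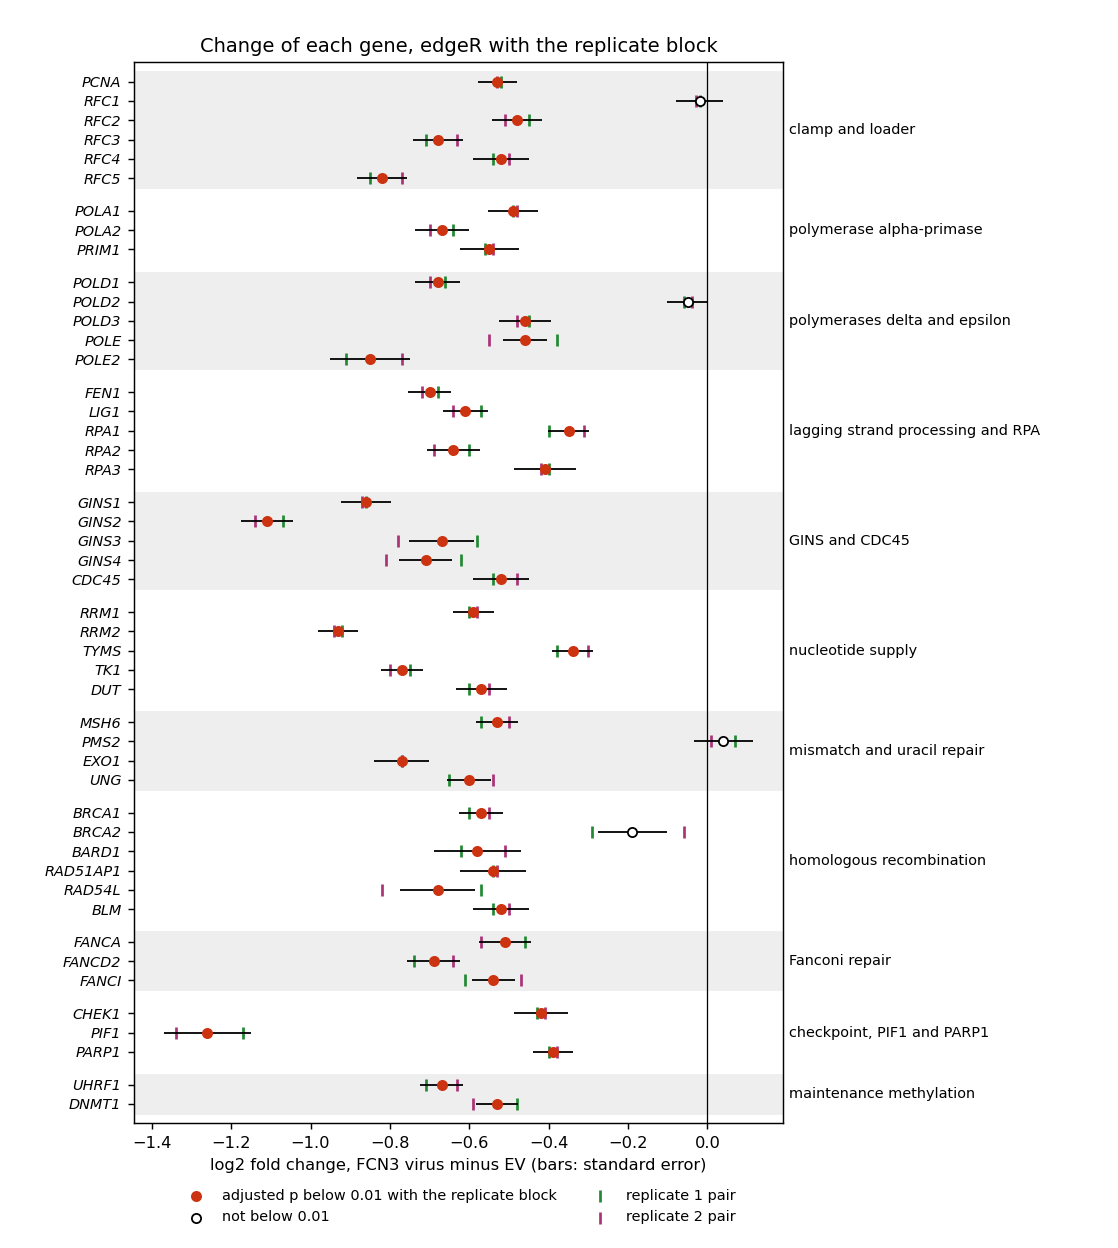
Fitted log2 fold change of each member (FCN3 minus EV, edgeR with the replicate block) with its SE as a bar; filled symbols mark an adjusted p below 0.01 and the green and purple ticks the differences of the replicate 1 and replicate 2 pairs. RFC1, POLD2, PMS2 and BRCA2 are the open symbols, and PIF1 and GINS2 stand farthest left, at -1.26 and -1.11.

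All 5 nucleotide supply members fell, with a median of -0.59. RRM2, the radical-bearing subunit of ribonucleotide reductase, was at 388 and 344 CPM in EV and 205 and 179 CPM in FCN3. Both FCN3 libraries were well below EV, and the fit gave 47.6% less (log2 fold change -0.93, SE 0.05, edgeR adjusted p = 4.7e-22, and 0.014 without the block). RRM1, the catalytic subunit, fell by 0.59 and differed more by replicate number, at 251 and 200 CPM in EV and 166 and 133 CPM in FCN3. By TPM, RRM2 was at 1.5 and 1.67 times RRM1 in EV and 1.2 and 1.31 times in FCN3. TK1, thymidine kinase, had 200 and 192 CPM in EV and 119 and 111 CPM in FCN3, and of all members it had the smallest adjusted p without the block, 0.012 in edgeR. TYMS, thymidylate synthase, was at 226 and 199 CPM in EV and 173 and 161 CPM in FCN3, the smallest fall of this role (log2 fold change -0.34, SE 0.052, edgeR adjusted p = 1.9e-07, and 0.1 without the block). TYMS overlaps exons of ENOSF1 on the other strand, and the strand setting of the counting is not given in the sources used here. DUT, the dUTPase that keeps uracil out of DNA, fell by 0.57. DUT has 8 named pseudogenes, and its counts would be uncertain where reads were divided. Its expected counts were whole numbers, 2757 and 1037 in EV and 1698 and 844 in FCN3. The part of the pseudogenes in them was not tested.

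Mismatch and uracil repair divided. EXO1, the exonuclease of mismatch repair, was at 55.6 and 50.8 CPM in EV and 32.7 and 29.9 CPM in FCN3 (log2 fold change -0.77, SE 0.069, edgeR adjusted p = 1.1e-13, and 0.02 without the block). MSH6, which recognizes mismatches, and UNG, the uracil glycosylase, fell by 0.53 and 0.60. PMS2, a mismatch repair endonuclease, was at 33.6 and 29.9 CPM in EV and 35.2 and 30.2 CPM in FCN3. The groups overlapped, and it was the only member with a fitted value above 0 (log2 fold change 0.04, SE 0.075, edgeR adjusted p = 0.68, and 0.88 without the block), a value that was -0.06 on the TPM scale and not called there either. PMS2, at 6010556 to 6048761 of chromosome 7 (GRCh37, minus strand), has 12 named pseudogenes in the annotation, PMS2CL among them, so that its expected counts depend on how RSEM divided shared reads. Its promoter, shown above, carries the TTTGCCGC form of the E2F pattern. Windows of UNG and FANCA, which fell by 0.60 and 0.51, hold the same form. By TPM, PMS2 was at 0.209 and 0.204 of MSH6 in EV and 0.324 and 0.29 in FCN3.

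In homologous recombination, 5 of 6 members fell, with a median of -0.56. RAD54L, a motor protein of strand exchange, had 20.8 and 24.3 CPM in EV and 14 and 13.7 CPM in FCN3 (log2 fold change -0.68, SE 0.094, edgeR adjusted p = 2.5e-08, and 0.045 without the block). BRCA2, a mediator of strand exchange, was at 28.9 and 18.8 CPM in EV and 23.5 and 18 CPM in FCN3. EV replicate 2 lay below FCN3 replicate 1, and the pairs gave differences of -0.29 and -0.06 (log2 fold change -0.19, SE 0.087, edgeR adjusted p = 0.062, and 0.65 without the block). BRCA1 and its partner BARD1 fell together, by 0.57 and 0.58, and the TPM ratio of BRCA1 to BARD1 was 4.18 and 3.7 in EV and 4.14 and 3.72 in FCN3. That ratio followed the replicate number. RAD51AP1, a cofactor of strand exchange, and the helicase BLM fell by 0.54 and 0.52. With no block RAD51AP1 was at -0.35 without EV replicate 1, while its pairs gave -0.54 and -0.53.

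The 3 Fanconi members fell. FANCD2, which is ubiquitinated at crosslinks, was at 65.2 and 58.8 CPM in EV and 39.1 and 37.7 CPM in FCN3 (log2 fold change -0.69, SE 0.066, edgeR adjusted p = 7.0e-13, and 0.021 without the block). FANCA, of the core complex, had 55 and 61.2 CPM in EV and 40 and 41.1 CPM in FCN3 (log2 fold change -0.51, SE 0.066, edgeR adjusted p = 4.9e-09, and 0.044 without the block). In FANCA the replicate 2 libraries were the higher ones of both groups, opposite to most members. FANCI, the partner of FANCD2, fell by 0.54, and an exon of POLG on the other strand overlaps it.

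PIF1, a DNA helicase, had the most negative fitted value with all 4 libraries. It was at 12.9 and 21 CPM in EV and 5.66 and 8.25 CPM in FCN3, so that the groups did not overlap but the EV libraries were far apart. The fitted decrease was 58.3% (log2 fold change -1.26, SE 0.11, edgeR adjusted p = 1.0e-13, and 0.073 without the block), with -1.17 and -1.34 in the pairs. Leaving out 1 library, with no block, moved PIF1 between -1.62 (without EV replicate 1) and -0.93 (without EV replicate 2). Without EV replicate 2 or FCN3 replicate 1 GINS2 was lower than PIF1, at -1.22 and -1.27. PARP1, a sensor of DNA breaks, was at 344 and 324 CPM in EV and 261 and 250 CPM in FCN3 (log2 fold change -0.39, SE 0.05, edgeR adjusted p = 4.1e-09, and 0.053 without the block). CHEK1, the checkpoint kinase activated by ATR, fell by 0.42.

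Both maintenance methylation genes, which copy DNA methylation behind the fork, fell. UHRF1, which recognizes hemimethylated DNA, had 174 and 145 CPM in EV and 106 and 93.9 CPM in FCN3 (log2 fold change -0.67, SE 0.055, edgeR adjusted p = 3.1e-15, and 0.037 without the block). DNMT1, the methyltransferase, was at 213 and 203 CPM in EV and 152 and 135 CPM in FCN3 (log2 fold change -0.53, SE 0.053, edgeR adjusted p = 1.9e-12, and 0.035 without the block). The E2F letters were in 19 of the 38 members called lower that had a promoter window and in 1 of the 4 that were not called, PMS2, but in 20 of 58 and 2 of 5 of their windows, so the order depended on the unit counted.

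The replicate number moved with the members as well. In the same edgeR fit, 18 of the 47 (38.3%) differed between replicates 1 and 2 at an adjusted p of 0.01, against 22.2% of all tested genes. Of these, 16 (34.0%) were higher in replicate 1, against 10.5% of all tested genes, and POLE and PIF1 were higher in replicate 2. The largest differences were those of PIF1 (replicate 2 minus replicate 1, 0.64 on the log2 scale, edgeR adjusted p = 1.2e-05), RPA3 (-0.52, edgeR adjusted p = 5.4e-07), BRCA2 (-0.50, edgeR adjusted p = 1.1e-05) and PRIM1 (-0.49, edgeR adjusted p = 6.3e-07). In 37 members replicate 1 was the higher library in both groups, and the share of all tested genes with that order was not counted. The libraries numbered 1 were also sequenced more deeply, and the part of depth in these differences was not tested.

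**Figure D3:**
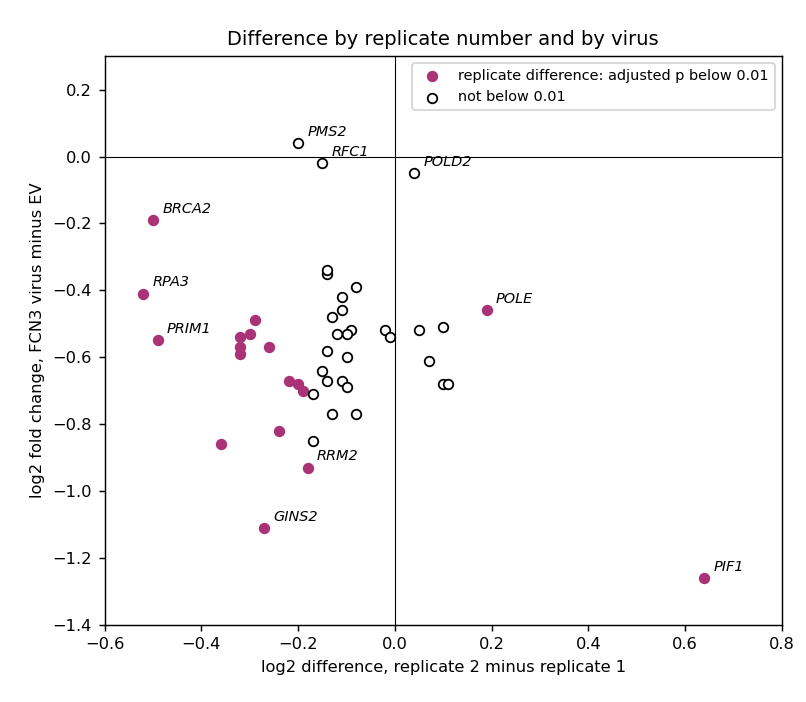
Log2 difference by replicate number (horizontal axis, replicate 2 minus replicate 1) against log2 fold change by virus (vertical axis, FCN3 minus EV) for the 47 members, both from the same edgeR fit; filled symbols have an adjusted p below 0.01 for the replicate number. Most points lie left of 0 and nearly all below 0, and PIF1 is alone at the lower right, at 0.64 and -1.26.

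A further 119 genes of DNA synthesis and repair moved in both directions. With the block, edgeR called 49 of them lower (41.2%) and 15 higher (12.6%), against the 17.1 and 19.1% of all tested genes given above. Those shares of all tested genes are also the background for the counts of each list below. The median log2 fold change of the 119 was -0.15. On the log2(TPM + 1) scale limma called 57 lower and 5 higher, against 22.3 and 10.2% of all tested genes. The 5 were RRM2B, FANCF, XPC, ERCC5 and CETN2. DESeq2 with the block called 4 higher, the same genes without FANCF, against 8.12% of all tested genes. The calls of the other increases named below were lost in both. Without the block, edgeR called 0 of the 119, and 49 had an unadjusted p below 0.05, as did 3542 of all 14099 tested genes. DESeq2 without the block called 14 lower and 2 higher, against 3.29 and 4.35% of all tested genes.

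The other replication fork genes were most like the members, with 14 called lower and 1 higher of 20 and a median of -0.45. CLSPN, a fork protection and checkpoint mediator, had the most negative value of these (-0.87, SE 0.07, edgeR adjusted p = 2.3e-15, and 0.026 without the block). POLD4, the smallest subunit of polymerase delta, was at 57.3 and 68.2 CPM in EV and 79.6 and 74.6 CPM in FCN3 (log2 fold change 0.31, SE 0.065, edgeR adjusted p = 8.9e-05, and 0.18 without the block). Its adjusted p was 0.029 by limma on log2(TPM + 1) and 0.033 by DESeq2 with the block.

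The remaining nucleotide supply genes had 4 called lower and 2 higher of 9, with a median of 0.10. RRM2B, the p53-inducible alternative to RRM2, was at 77.1 and 57.5 CPM in EV and 102 and 84.6 CPM in FCN3 (log2 fold change 0.47, SE 0.06, edgeR adjusted p = 2.7e-09, and 0.17 without the block). Its TPM was 0.13 and 0.11 of that of RRM2 in EV and 0.326 and 0.308 in FCN3. CTPS1, a CTP synthase, was the other called increase (0.24, SE 0.051, edgeR adjusted p = 1.3e-04, and 0.35 without the block).

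Among 20 other mismatch and base excision genes 7 were called lower and 1 higher, with a median of -0.16. NEIL1, a glycosylase at 1.03 to 2.39 CPM, had the lowest fitted value and was not called (-0.55, SE 0.27, edgeR adjusted p = 0.093). PMS1, a mismatch repair relative of PMS2, was the called increase (0.38, SE 0.077, edgeR adjusted p = 5.8e-05, and 0.15 without the block).

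For homologous recombination, 8 were called lower and 1 higher of 18, with a median of -0.18. PSMC3IP, a recombination cofactor, was lowest (-0.81, SE 0.087, edgeR adjusted p = 3.4e-11, and 0.041 without the block) and the helicase WRN highest (0.38, SE 0.068, edgeR adjusted p = 7.4e-06, and 0.11 without the block). Other Fanconi genes had 6 called lower and 2 higher of 11, with a median of -0.30. FANCM, the fork remodeler of this pathway, was lowest, at -0.60 (SE 0.099). FANCF, of the core complex, and the nuclease FAN1 were the called increases, at 0.54 (SE 0.097) and 0.22 (SE 0.067). FAN1 was at 0.09 on the log2(TPM + 1) scale, where limma gave an adjusted p of 0.39.

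The remaining repair lists had medians near or above 0. Their counts of calls are to be read beside the 17.1% of all tested genes called lower and the 19.1% called higher. Among 14 nucleotide excision genes 3 were called lower and 3 higher, with a median of 0.07. XPC, which recognizes helix distortions, was at 97.9 and 99.1 CPM in EV and 150 and 163 CPM in FCN3, the largest increase of the 119 (log2 fold change 0.66, SE 0.055, edgeR adjusted p = 5.6e-15, and 0.016 without the block). ERCC5, an excision nuclease, and CETN2, a partner of XPC, rose by 0.57 and 0.53. Among 7 translesion synthesis genes 2 were called lower and 3 higher, with a median of 0.16. The lesion bypass polymerases POLK, POLI and POLH were at 0.36, 0.35 and 0.25, with adjusted p of 0.035, 0.29 and 0.17 by DESeq2 with the block, and MAD2L2, a subunit of polymerase zeta, fell by 0.47. End joining had 3 called lower and 2 higher of 10, with a median of -0.03. There POLQ, the polymerase of microhomology-mediated joining, fell by 0.43, and DCLRE1C (Artemis) and POLL, a gap-filling polymerase, were at 0.40 and 0.39, with adjusted p of 0.15 and 0.083 by DESeq2 with the block. Of 10 checkpoint kinase genes 2 were called lower and 0 higher, with a median of 0.02. ATRIP, the partner of ATR, was lowest (-0.35, SE 0.1, edgeR adjusted p = 0.0047), and RAD9A, a checkpoint clamp subunit, highest and not called (0.26, SE 0.088, edgeR adjusted p = 0.014).

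The E2F letters were found in 14 of the 97 further genes with a promoter window (14.4%). By call, they were in 8 of 37 that were called lower (21.6%), 2 of 13 called higher (15.4%) and 4 of 47 not called (8.51%). These shares are descriptions, and no test was made of them.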

How the data were processed

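RNA was measured by stranded mRNA sequencing in 4 libraries, 2 per group, and the labels gave the groups and the replicate numbers. After trimming, the authors mapped the reads to hg19 using STAR 2.6.1d (per the submitters' processing notes) and ran RSEM, in which reads that match more than 1 gene are shared out among those genes. The authors deposited expected counts, which need not be whole, together with TPM and FPKM, both normalized to gene length and to depth, of which only TPM is used here. The strand setting of the counting is not given in the sources used here. Of the members, 16 have named pseudogenes and 23 share exon positions with another gene in GENCODE on GRCh37, 17 of these with a gene on the other strand, and their values are uncertain to that extent.

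Expected counts were rounded and fitted in R 4.3.3 with edgeR 4.0.16 (TMM, filterByExpr, quasi-likelihood test, adjusted p over 14099 genes, threshold 0.01), with a block for the replicate number. The SE was obtained as the size of the log2 fold change over the square root of F. The pairing comes from the module's definition and the numbers in the labels, and no label says what a number marks. Over the 8310 tested genes whose average log2 CPM exceeded 4, the replicate 1 minus 2 differences of the 2 groups had a Pearson r of 0.806, and across the 47 members 0.895 (across genes, which are not independent replicates). An exact permutation test of 2 against 2 cannot give a two-sided p below 0.333. At a floor of 3 counts the smallest visible level was 0.084 to 0.183 CPM, for counting error only. The fit was tested on simulated data.

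Alternatives were no block, DESeq2 1.42.0 with and without it, limma 3.58.1 (voom, log2(TPM + 1), log2(TPM + 0.1)), RLE and upper-quartile factors, FCN3 left out, no filter, a minimum of 10 counts in each library, the older quasi-likelihood method, other thresholds, and each library left out.

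The members, the further lists and the roles were chosen with earlier results of these data known. Values by library are given for the largest and smallest change of each role, for members not called, and for members of the opposite sign. RPA3, RRM1 and TK1 were added after their values were seen, as were the pairs set in TPM ratios. Of the further lists the extremes are named, with the genes called higher, except that the results of some genes are not reported here. Promoters are from RefSeq on GRCh38.p14, and the printed ones were limited to members with a match wholly before the start.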

Additional observations from a re-analysis of the deposited data

How the results depend on the processing

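With 2 libraries per group, the edgeR calls rest on the replicate block. Without the block edgeR called 0 members and 0 of the further genes, lower or higher, so the pairing decides every edgeR call at 0.01, while no called member changed sign. DESeq2 without the block called 28 members, all lower, and 16 further genes (14 lower, 2 higher). DESeq2 with the block called 41 members and 34 further genes (30 lower, 4 higher). Of all tested genes, DESeq2 called 3.29% lower and 4.35% higher without the block, and 7.89 and 8.12% with it. RPA3 and BARD1 were the called members that DESeq2 did not call with the block. Asking also for a log2 fold change of 1 or more in size left 2 members, both lower, and 1 further gene, also lower, with 0 higher. Of all 14099 tested genes, 286 had a fitted value at or below -1, called or not. On the TPM scales (pseudocounts 1 and 0.1) 5 further genes were called higher in place of 15, and the median of the members was -0.65 and -0.67. With upper-quartile factors that median was -0.59. Those TPM scales moved the median of all tested genes to -0.072 and -0.087.

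When single libraries were left out, with no block, edgeR called 0 to 4 members, all lower, and 0 to 2 further genes, 0 to 2 lower and 0 higher, with a lone library assumed to vary like the other group. These fits called 0.0995 to 0.586% of all their tested genes lower and 0.554 to 1.23% higher. The 4 members, called without EV replicate 2, were RFC5, GINS2, RRM2 and TK1. The median of the members ran from -0.69 (without FCN3 replicate 1) to -0.49 (without EV replicate 1). RFC1, PMS2 and BRCA2, which were not called, had values above 0 in some of these fits. Under the other settings with the block (limma, RLE and upper-quartile factors, FCN3 left out, both filters, the legacy method and an adjusted p of 0.05), each of the 47 members kept its call.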
